A study of Bos taurus with 4 samples.

Results

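In early blastocysts of Holstein cattle, 6 genes of the bovine histocompatibility system were followed among 15214 genes named on the array: B2M, BoLA-DRB3, JSP.1, BOLA-DMB, BOLA-N and BOLA-NC1. Their probes were found by the gene symbol that the platform annotation gives, in any letter case, which took 7 of the 43794 gene probes on the array, and 6 of these 7 were among the 17685 probes tested. The 6 genes were chosen from earlier results of the same comparison of ages, so their age ratios are a description and carry no test.

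The embryos came from oocytes of 4 heifers, each collected by ovum pickup after stimulation with follicle-stimulating hormone at 8 months of age and again at 14 months. All oocytes were fertilized in vitro with semen of 1 adult bull, and the embryos were collected at 168 h after fertilization and pooled before RNA extraction. The 8-month collection always came before the 14-month one, so donor age and the order of collection cannot be told apart. The 2 pools of a heifer, amplified linearly and labelled with different dyes, were hybridized together on an array of their own, 4 arrays in all. Heifers 1 and 2 had the 8-month pool in Cy5 and the 14-month pool in Cy3, and heifers 3 and 4 had the 8-month pool in Cy3 and the 14-month pool in Cy5. The study's question is how the age of the donor bears on gene expression in the blastocyst, with each animal as its own control.

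Histocompatibility molecules carry peptides to the cell surface, where T cells and natural killer cells read them. Class I molecules consist of a polymorphic heavy chain and the small invariant chain beta-2 microglobulin, the product of B2M, without which most class I chains do not leave the endoplasmic reticulum. Class II molecules pair an alpha and a beta chain, are held ready by the invariant chain CD74 and are loaded with peptide by the DM heterodimer, mainly in antigen-presenting cells. In the cow, where the system is called BoLA, class I chains on the trophoblast bear on how the mother's immune system meets the conceptus. JSP.1 and BOLA-N are names of class I heavy chains, BOLA-NC1 is a non-classical class I chain, BoLA-DRB3 is the polymorphic beta chain of DR, and BOLA-DMB is the beta chain of DM.

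The arrays differed in depth of signal: between 26.9% and 41% of probes were above background in Cy5 and between 43.3% and 51.1% in Cy3. Above background means a foreground more than 2 SD over the average of the 153 negative controls in the same array and channel. Across tested probes the log2 ratios of 8 over 14 months correlated at 0.609 between heifers 1 and 2 and at 0.386 between heifers 3 and 4, but only between 0.00153 and 0.124 across the dye orientations. In heifers labelled the same way, any dye effect enters the ratios with the same sign. Across the orientations it enters with opposite signs, so those correlations do not read the age contrast alone. All 10 trophectoderm markers examined were tested, and their summed level ran over 128000 to 178000 intensity units at 8 months and 136000 to 165000 at 14 months. For the inner cell mass 5 of 6 markers were tested, with sums of 12400 to 18000 at 8 months and 12200 to 19000 at 14 months. Markers of both blastocyst lineages were thus read. The cumulus and granulosa sums given below reached into the inner cell mass range at 8 months, so such sums alone do not set cell identity.

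Among the members, B2M was the brightest probe and, with BoLA-DRB3, was higher at 8 months in all 4 heifers. The main B2M probe, EMBV3_03050, had foreground intensities of 14707, 9305, 9388 and 7951 in the 8-month embryos of heifers 1 to 4, against 9584, 4746, 5002 and 4794 in their 14-month embryos. Within each heifer the 8-month reading was the higher one, as it was for the median tested probe before normalization. The readings of the 2 ages overlapped because heifer 1 was bright in both. After background correction and loess normalization, its log2 ratios of 8 over 14 months were 0.77, 1.06, 0.47 and 0.49 in heifers 1 to 4. The mean ratio was 0.70 ± 0.28 on the log2 scale (SD, n = 4), or 1.62-fold. The corresponding normalized levels were 13.2 ± 0.50 at 8 months and 12.5 ± 0.46 at 14 months (log2 intensity, SD, n = 4 each), and they overlapped between heifers. In pooled embryos, a smaller share of cells with a transcript and less of it in each cell cannot be told apart.

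A second B2M probe, EMBV3_41443, was above background in none of the 8 samples. Its foreground was 222, 231, 249 and 311 at 8 months and 125, 177, 77 and 162 at 14 months, in each case under the threshold of its array and channel. Its log2 ratios of 0.13, 0.07, 0.09 and −0.09, with a mean of 0.05 ± 0.10 (SD, n = 4), therefore describe background and not B2M. The B2M result rests on 1 of the gene's 2 probes.

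BoLA-DRB3, the class II beta chain that varies most between animals, was read by 1 probe, EMBV3_33654. Its foreground was 1184, 1397, 1279 and 1242 at 8 months, against 603, 580, 504 and 804 at 14 months, all above background. Before normalization, each 8-month reading exceeded each 14-month reading. The median tested probe also read higher at 8 months then, with log2 ratios of 0.21, 0.05, 1.02 and 0.72 in heifers 1 to 4. The uncorrected readings therefore do not separate the gene from the array as a whole. The normalized log2 ratios were 1.01, 1.46, 0.54 and 0.12 in heifers 1 to 4, a mean of 0.78 ± 0.58 (SD, n = 4), or 1.72-fold. Heifers 1 and 2 gave most of this difference, and the ratio of heifer 4 was small. The normalized levels were 10.1 ± 0.24 at 8 months and 9.33 ± 0.45 at 14 months (log2 intensity, SD, n = 4 each), and they overlapped.

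**Figure D1:**
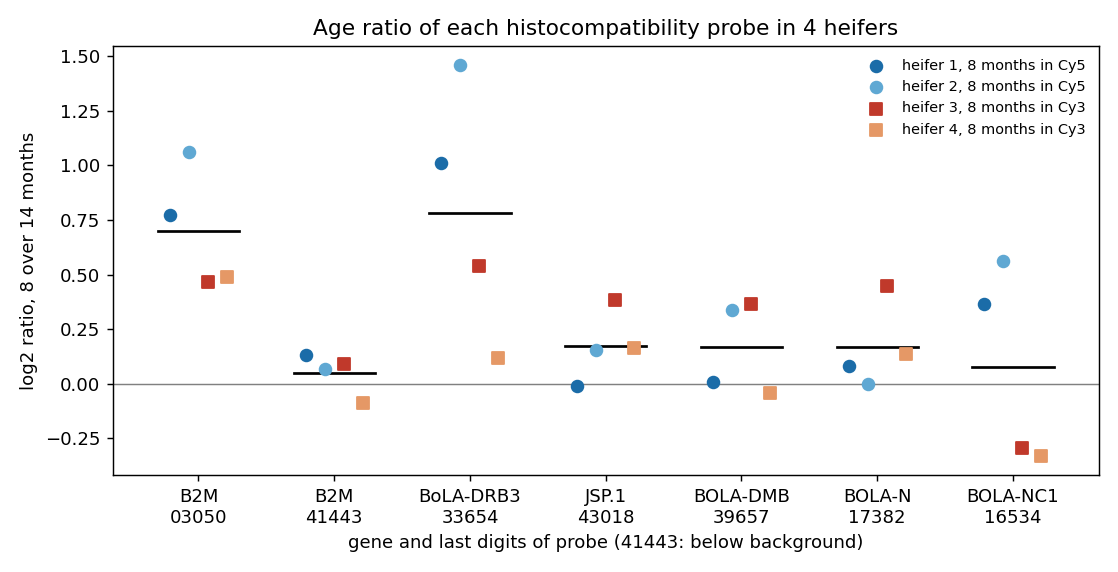
Normalized log2 ratio of 8 over 14 months (vertical axis) of the 7 member probes (horizontal axis) in each of 4 heifers, with circles for 8 months in Cy5, squares for 8 months in Cy3 and a bar for the mean. EMBV3_03050 of B2M and the BoLA-DRB3 probe lie above 0 in all 4 heifers, and BOLA-NC1 lies above 0 in heifers 1 and 2 and below 0 in heifers 3 and 4.

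The class I heavy chain probes were dim and showed smaller ratios. JSP.1 had foregrounds of 333, 345, 546 and 363 at 8 months and 281, 301, 197 and 176 at 14 months, the last of which was below background. Its log2 ratios were −0.01, 0.16, 0.38 and 0.16 in heifers 1 to 4, with a mean of 0.17 ± 0.16 (SD, n = 4). One heifer thus lay at 0 and the mean was about the size of the SD.

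BOLA-N read 337, 385, 783 and 427 at 8 months and 266, 369, 300 and 220 at 14 months, again with the 14-month sample of heifer 4 below background. The log2 ratios were 0.08, 0.00, 0.45 and 0.14, with a mean of 0.17 ± 0.20 (SD, n = 4), and heifer 3 alone gave most of it. The 4 ratios of JSP.1 and BOLA-N lay close together, at a root mean square distance of 0.0987, the shortest among the members. Genes outside the members lay closer to each, such as GNGT2 at 0.0365 from JSP.1 and LDHA at 0.0378 from BOLA-N. The closeness was therefore not particular to class I. Class I heavy chains are related in sequence, and how far each probe also reads its relatives was not examined here. The level of any single class I gene is therefore uncertain.

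BOLA-NC1, the non-classical chain, was above background in all 8 samples. Its foreground was 291, 380, 335 and 376 at 8 months and 165, 268, 180 and 237 at 14 months. The margins were narrow, such as 237 against a threshold of 231.64 in the 14-month sample of heifer 4. The log2 ratios split by dye orientation: 0.36 and 0.56 in heifers 1 and 2, and −0.30 and −0.33 in heifers 3 and 4. Their mean was 0.07 ± 0.46 (SD, n = 4), so no common direction with age was seen. The probe of BOLA-DQB, at background in all 8 samples, split the same way, at 0.38, 0.35, −0.28 and −0.44. Other background probes, such as that of BOLA-DRA, did not.

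BOLA-DMB, the peptide loader of the class II path, read 315, 349, 413 and 339 at 8 months and 256, 265, 134 and 175 at 14 months, with the 14-month sample of heifer 4 below background. The log2 ratios were 0.01, 0.34, 0.36 and −0.04, with a mean of 0.17 ± 0.21 (SD, n = 4). Heifers 2 and 3 stood above 0 and the other pair lay at 0.

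**Figure D2:**
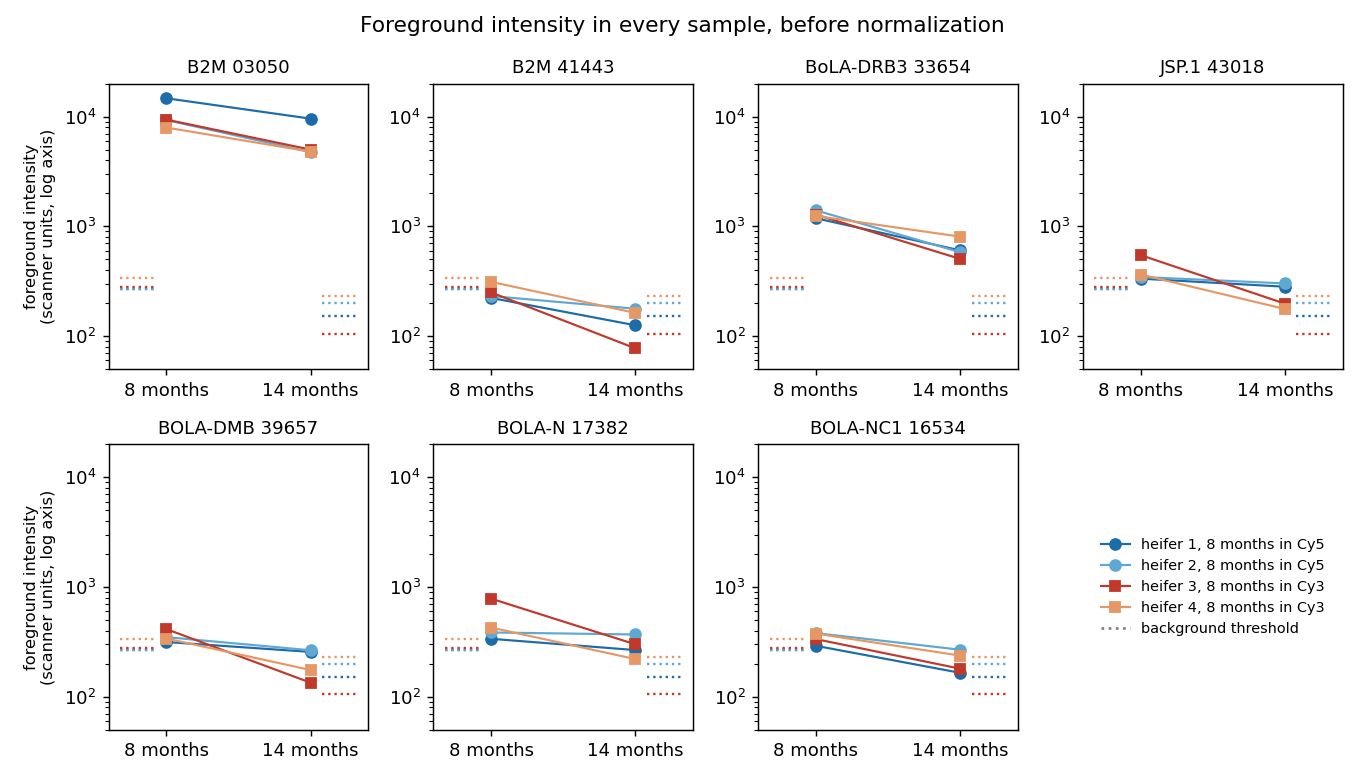
Foreground intensity in scanner units on a log axis at 8 and at 14 months, 1 panel per member probe and 1 line per heifer, before background correction and normalization; dotted lines mark the background threshold of each heifer's channel. EMBV3_03050 of B2M sits between 4746 and 14707, BoLA-DRB3 between 504 and 1397, and the other probes near the thresholds.

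By the limma fit with a dye term, B2M (EMBV3_03050) and BoLA-DRB3 were the members called at an adjusted p under 0.05 (Benjamini-Hochberg), 2 of the 6 tested probes, among 1.88% of all tested probes called and 0.554% called higher at 8 months. Over genes, with 1 probe each, they were again the 2 called members, among 4.5% of 8397 genes called, 1.7% higher at 8 months and 2.8% lower. The same 2 probes were the only tested members with a ratio above 0 in all 4 heifers, which 12.9% of all tested probes showed. Both gene calls were lost without heifer 1, without heifer 2 and without heifer 3 and remained without heifer 4, and B2M was not called with median centring. Nothing is read from these counts, since the members were chosen on this contrast. The median log2 ratio over all tested probes was 0.0023, and the median SD between heifers was 0.246.

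The dye orientation is a contrast on which the members were not chosen, and its term was tested in the same fit over all tested probes, where 0.102% were called. None of the 6 tested members passed. BOLA-NC1 and BoLA-DRB3 had an unadjusted p under 0.05 by limma, as did 3358 of all 17685 tested probes. BOLA-NC1 averaged 0.46 in heifers 1 and 2 and −0.31 in heifers 3 and 4, a difference of 0.78 on the log2 scale (limma, adjusted p = 0.128). BoLA-DRB3 averaged 1.23 in heifers 1 and 2 and 0.33 in heifers 3 and 4, a difference of 0.90 (limma, adjusted p = 0.149). B2M averaged 0.92 and 0.48 in the same pairs of heifers, a difference of 0.44 (limma, adjusted p = 0.282). The other members, JSP.1, BOLA-N and BOLA-DMB, had adjusted p-values of 0.602, 0.514 and 0.98 in the same limma fit. Since different heifers carry the 2 orientations, dye and animal cannot be told apart here.

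In heifers 3 and 4 the sizes of the B2M and BoLA-DRB3 ratios changed with the normalization. Before any correction, the B2M log2 ratios were 0.62, 0.97, 0.91 and 0.73 in heifers 1 to 4, against medians of all tested probes of 0.21, 0.05, 1.02 and 0.72. Set against these medians, the uncorrected B2M ratios were 0.41, 0.92, −0.11 and 0.01, near the typical probe in heifers 3 and 4. The uncorrected BoLA-DRB3 ratios were 0.97, 1.27, 1.34 and 0.63, which set against the same medians were 0.76, 1.22, 0.33 and −0.09. Without any correction BoLA-DRB3 thus still exceeded the typical probe in heifer 3, and in heifer 4 it did not. Centring each array on its median in place of loess gave B2M ratios of 0.64, 0.94, −0.31 and 0.07 and BoLA-DRB3 ratios of 0.90, 1.28, 0.04 and −0.11. The medians of the tested probes were then −0.02, −0.09, −0.32 and −0.14, since centring took in the dim probes too, so 0 was not the typical tested probe. Relative to these medians B2M stood at 0.66, 1.03, 0.01 and 0.21 and BoLA-DRB3 at 0.93, 1.36, 0.36 and 0.03 in heifers 1 to 4. B2M was level with the typical tested probe in heifer 3 and BoLA-DRB3 nearly so in heifer 4. The mean ratio with median centring was 0.33 for B2M, against 0.70 with loess, and 0.53 for BoLA-DRB3, against 0.78.

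Probes as bright as B2M had lower uncorrected ratios than the median probe in all 4 heifers, a dependence on intensity that loess removes and median centring leaves. This dependence had the same direction in both dye orientations, and its cause was not tested. Loess takes it out whatever its source, any part tied to donor age included. Among the 500 tested probes nearest to B2M in intensity, the median uncorrected log2 ratio was −0.18, −0.06, 0.55 and 0.26 in heifers 1 to 4. Set against these neighbours, B2M stood 0.80, 1.03, 0.36 and 0.47 higher. BoLA-DRB3 stood 1.02, 1.39, 0.59 and 0.13 above its own 500 neighbours, and both genes were above them in every heifer. This comparison, like loess, sets a probe against others of its intensity on the same array, so it is not a separate check. The authors' deposited table of normalized log2 ratios, from the same arrays, gave 0.76, 1.13, 0.41 and 0.49 for B2M and 1.03, 1.49, 0.50 and 0.12 for BoLA-DRB3.

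**Figure D3:**
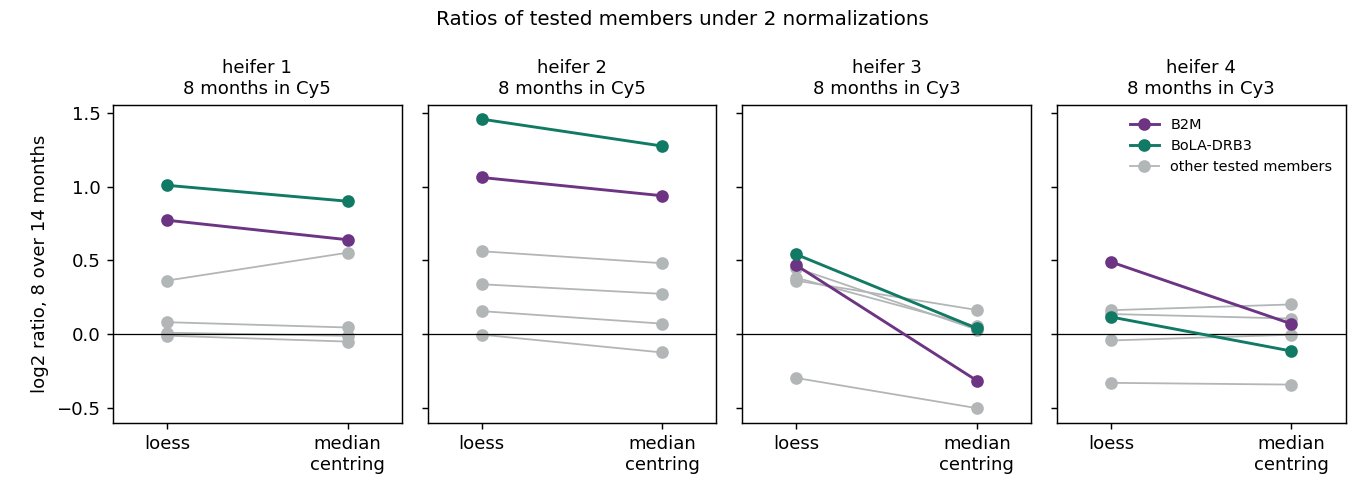
Log2 ratio of 8 over 14 months (vertical axis) of the 6 tested member probes after loess and after median centring, 1 panel per heifer, with B2M and BoLA-DRB3 in colour. Both stay well above 0 in heifers 1 and 2, and with median centring B2M is at −0.31 in heifer 3 and 0.07 in heifer 4, where the medians of the tested probes are −0.32 and −0.14.

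The other genes of the class II region give the setting of BoLA-DRB3. The array held 15 further probes with a BoLA symbol, of which 8 were above background in no sample and 2 were tested. BOLA-DRA, the alpha chain with which a DR beta chain pairs, had foregrounds of 129, 130, 176 and 192 at 8 months and 106, 116, 58 and 113 at 14 months, all below background. CD74, BOLA-DMA, BOLA-DRB2, BOLA-DQA1, BOLA-DQA2, BOLA-DQB and BOLA-DYB were likewise at background in all 8 samples. A signal for the beta chains DRB3 and DMB was therefore read without one for their alpha chain partners. A probe at background sets no level for its gene, and the sequence each probe reads was not used here.

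The 2 tested probes of the further set both carry the symbol BOLA, a class I heavy chain, and neither was called. RefSeq gives BoLA-N as a synonym of BOLA, so these probes and the BOLA-N probe may read the same gene. EMBV3_01274 had log2 ratios of 0.26, 0.69, −0.31 and 0.10 in heifers 1 to 4, and EMBV3_25165 had 0.68, −0.57, −0.11 and −0.31. These probes of 1 symbol had opposite signs in heifers 2 and 4, and their means were 0.19 and −0.08, beside 0.17 for the BOLA-N probe.

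**Figure D4:**
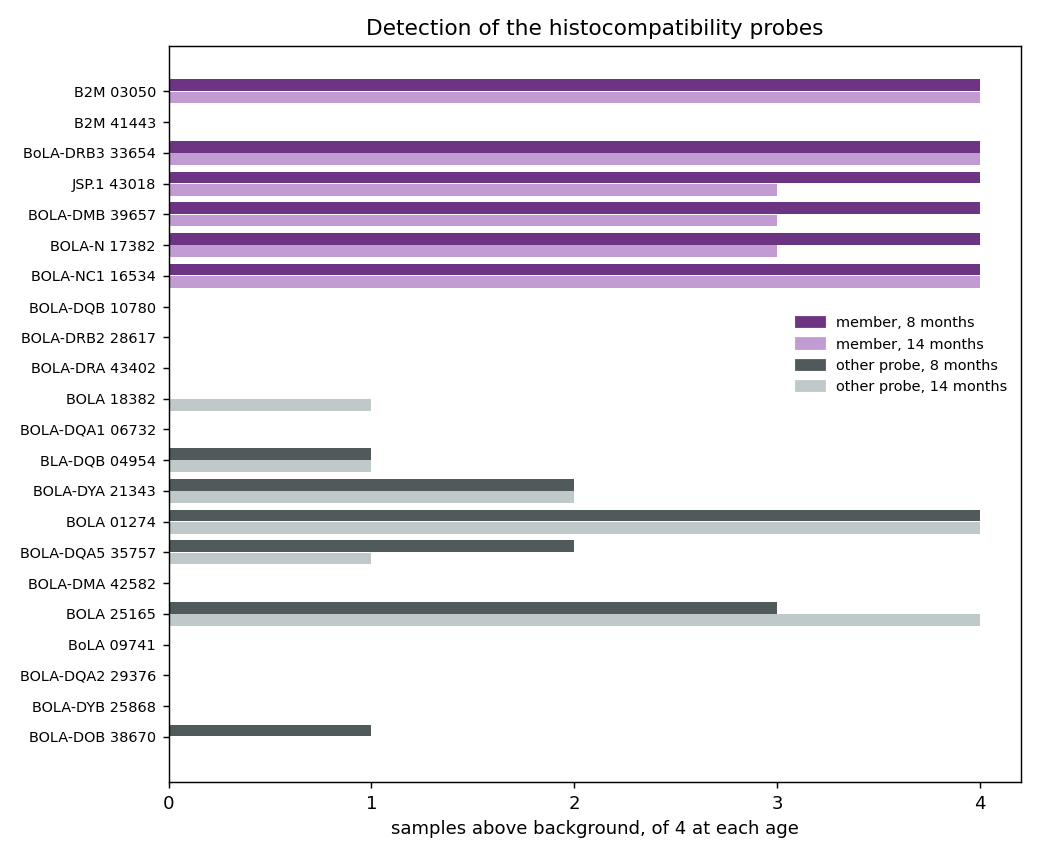
Number of samples above background, of 4 at each age (horizontal axis), for the 7 member probes and the 15 other probes with a BoLA symbol, with the 8-month bar above the 14-month bar. Of the member probes, 6 are above background in at least 3 samples of each age, while 8 of the other 15 have no bar.

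In the order of coding genes in RefSeq's annotation of ARS-UCD2.0, from which positions are not given, BOLA-NC1 and JSP.1 are adjacent, and BOLA, the gene with the synonym BoLA-N, lies a few genes on. All 8 nearest coding genes of BoLA-DRB3 were below the limit for testing, the DQ genes, BOLA-DRB2 and BOLA-DRA among them. Next to BOLA-DMB, the tested genes were PSMB9 at −0.06, TAP1 at −0.08 and BRD2 at 0.17 (log2 ratios of 8 over 14 months), none of them called. B2M lies on another chromosome, where its tested neighbours EIF3J and SPG11 had log2 ratios of 0.16 ± 0.17 and 0.06 ± 0.12 (SD, n = 4), not called. No tested neighbour within 4 genes of any member was called.

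Supply and loading of peptide for class I showed no member past the test. Of 17 genes listed, 12 were tested and 0 were called in either direction by limma (2 had an unadjusted p under 0.05, as did 27.3% of all tested genes), with a median log2 ratio of −0.01 and a range of −0.27 to 0.36. The smallest p-values belonged to PSME1 and PSME2, the subunits of the PA28 proteasome activator. PSME1 had log2 ratios of 0.65, 0.45, −0.09 and 0.43 in heifers 1 to 4, a mean of 0.36 ± 0.12 (SE, n = 4, limma adjusted p = 0.102). PSME2 averaged 0.32 ± 0.12 (SE, n = 4, limma adjusted p = 0.141). With median centring the means were 0.14 for PSME1 and 0.06 for PSME2. TAP1, a subunit of the peptide transporter, was at 0.23, 0.38, −0.31 and −0.64, positive in heifers 1 and 2 and negative in heifers 3 and 4. PSMB8, an immunoproteasome subunit, was at background in all 8 samples.

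Class I-related chains gave 4 tested genes of 15 listed, and limma called 0 of them, with none at an unadjusted p under 0.05, against 27.3% of all tested genes. Their median log2 ratio was 0.12. FCGRT, the neonatal Fc receptor, which also pairs with beta-2 microglobulin, averaged 0.20 ± 0.11 (SE, n = 4, limma adjusted p = 0.261). CD1A, a lipid-presenting chain that pairs with it too, averaged 0.13 ± 0.10 (SE, n = 4, limma adjusted p = 0.408). With median centring they were at 0.05 and 0.20.

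Of 18 genes of the class II path, 14 had a probe but were below the limit for testing, and 2 were tested. These were the lysosomal proteases CTSB at 0.23 ± 0.10 (SE, n = 4, limma adjusted p = 0.18) and LGMN at 0.22 ± 0.11 (SE, n = 4, limma adjusted p = 0.226), which act in many other processes. Neither was called, and both means were negative with median centring (−0.11 and −0.13). The median of all tested probes was then −0.14, so these means lay near the typical probe.

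Among 16 transcription factors of class I and II genes, 11 were tested, 2 were called lower at 8 months and 0 higher, against 2.8% and 1.7% of all genes. The list's median log2 ratio was −0.17, beside −0.0035 over all tested genes. STAT2, which carries the interferon signal to the nucleus, was lower at 8 months by 0.53 ± 0.10 on the log2 scale (SE, n = 4, limma adjusted p = 0.0363). Its log2 ratios were −0.79, −0.54, −0.43 and −0.36 in heifers 1 to 4. NFKB1, a subunit of NF-kappa-B, had −0.30, −0.36, −0.52 and −0.76, a mean of −0.48 ± 0.10 (SE, n = 4, limma adjusted p = 0.0389). Both were negative in 4 of 4 heifers. Both calls were lost when any 1 heifer was left out: adjusted p then ran from 0.0517 to 0.238 for STAT2 and from 0.0753 to 0.232 for NFKB1. With mean pixel intensities the log2 ratios were −0.37 for STAT2 and −0.21 for NFKB1, and neither was called. NLRC5, the class I transactivator, was below the limit for testing.

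Turnover of class I chains and their receptors gave 6 tested genes of 11 listed, and limma called 0 of them (1 had an unadjusted p under 0.05, against 27.3% of all tested genes), with a median log2 ratio of 0.09. SEC61A1, the translocon channel, averaged 0.39 ± 0.14 (SE, n = 4, limma adjusted p = 0.117), and 0.15 with median centring. SYVN1, a ubiquitin ligase of the endoplasmic reticulum, averaged 0.17 ± 0.11 (SE, n = 4, limma adjusted p = 0.349), and −0.12 with median centring. The median of all tested probes was −0.14 with that centring.

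**Figure D5:**
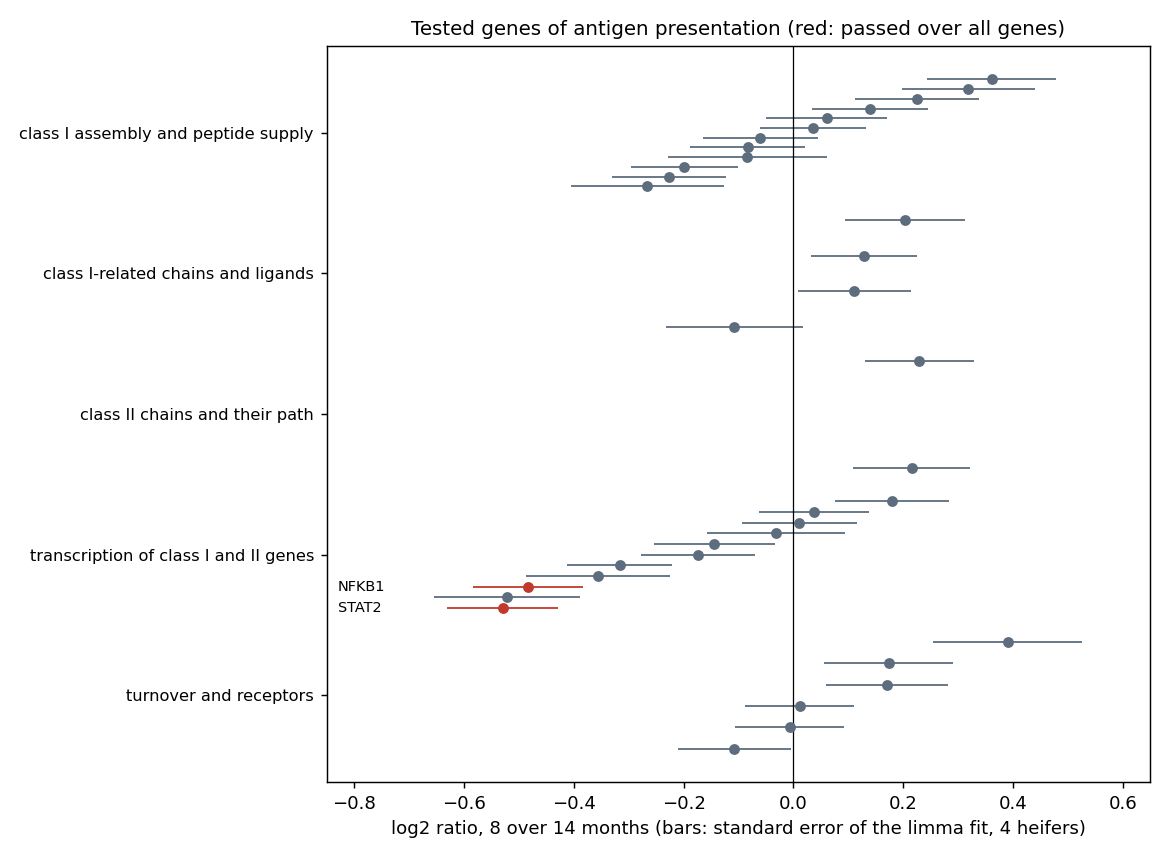
Mean log2 ratio, 8 over 14 months, and limma standard error over 4 heifers (horizontal axis) for each tested gene of 5 lists of antigen presentation (vertical axis), with called genes in red. STAT2 and NFKB1, at −0.53 and −0.48, are the called genes, and the other 33 lie between −0.52 and 0.39.

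Cells of other kinds can carry histocompatibility transcripts into an embryo pool, and their markers were read beside the members. Of 12 white blood cell markers with a probe, 2 were tested and 7 were at background in every sample, CD3D, ITGAM, LCP1 and CSF1R among them. The summed level of the 2 tested markers ran from 714 to 2340 at 8 months and from 537 to 1960 at 14 months. PTPRC, the common leukocyte antigen, had log2 ratios of 0.74, 0.50, 0.29 and −0.27 in heifers 1 to 4, with a mean of 0.31 (limma adjusted p = 0.144). CD3E, the other tested marker, a chain of the T cell receptor complex, had 0.02, 0.21, −0.04 and 0.05, with a mean of 0.06 (limma adjusted p = 0.715). PTPRC, like BoLA-DRB3, was highest in heifers 1 and 2 and lowest in heifer 4, while CD3E was lowest in heifer 3. This order was not particular to PTPRC. Markers of other cells shared it, SERPINE2 (cumulus and granulosa), NANOG (inner cell mass) and TEAD4 (trophectoderm) among them, while others, such as POU5F1, did not. The part of PTPRC or CD3E in the BoLA-DRB3 ratios was not tested. For cumulus and granulosa cells 5 of 12 markers were tested and 5 were at background throughout, with sums of 7040 to 14600 at 8 months and 6640 to 9920 at 14 months. Endothelial and fibroblast markers summed to 1160 to 1800 at 8 months and 1380 to 2110 at 14 months over 2 tested of 6, and of 3 red cell markers 1 was tested, with 524 to 743 and 475 to 906 at the same ages. Of the 10 trophectoderm markers 2 were called higher at 8 months (GATA2 and TEAD4) and 1 lower (DAB2), beside 1.7% and 2.8% of all genes, and their part in the member ratios was not tested.

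The genes whose 4 ratios lay nearest to those of B2M, by root mean square distance over the 4 heifers among 8391 genes, were PCMT1, CLTB, HINT1 and GLUL, at distances of 0.0842 to 0.135 against a median of 0.789. PCMT1, a protein repair methyltransferase, had log2 ratios of 0.73, 0.91, 0.49 and 0.44. Nearest to BoLA-DRB3 were CS, TSC22D4, SPC24 and GATA2, at 0.279 to 0.314 against a median of 0.968, so its pattern had less close company. CS, the mitochondrial citrate synthase, had log2 ratios of 1.14, 0.97, 0.36 and 0.27. B2M and BoLA-DRB3 lay 0.299 apart.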

How the data were processed

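The 4 arrays analysed were 2-colour, each with the 8- and 14-month embryos of 1 heifer. The deposited scanner tables hold foreground and background intensity per spot, not normalized, per the file headers. The authors' deposited tables hold log2 ratios. Their correlation with the ratios computed here was 0.966 to 0.998 and their slopes 0.982 to 1, which sets scale and direction (Cy5 over Cy3, turned to 8 over 14 in the series table). Column medians of the authors' table were 0.00364, 0.000285, 0.00139 and −0.00937, and in the series table they were 0.00364, 0.000285, −0.00139 and 0.00937. The authors' background correction, normalization and centring are not given in the sources used here.

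Median intensities were corrected with normexp (offset 50) and loess (limma 3.58.1, R 4.3.3). The loess curve was fitted on the gene probes, without the 153 negative controls and 1426 other control or unnamed spots. Probes above background in at least 3 of 4 samples of at least 1 age were tested with lmFit and eBayes, with age and dye terms, two-sided, Benjamini-Hochberg at 0.05. The deposited intensities were used as medians of pixels, and levels are log2 intensities after loess and Aquantile scaling. The gene fit took the brightest tested probe of each symbol. Symbols (21790 probes with 1, 22004 with none, 0 with several) were updated through RefSeq synonyms (1643 replaced, 78 kept). The fit was tested on simulated data. Pairing by animal lies within the array. Each array is a separate animal, and having 4 of them limits the precision.

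Members, lists and the rule for named genes (all members, each list's called genes and the 2 smallest p-values, the 4 genes nearest to B2M and BoLA-DRB3, counts for marker lists) were chosen with earlier results of these data known. TAP1, PSMB8, PTPRC, CD3E, SERPINE2, NANOG, TEAD4, POU5F1, NLRC5, CD74, GNGT2, LDHA, further BoLA genes and the neighbours were named after their values were seen. Probe, promoter and protein sequences were not used here. Alternatives were the background correction, the normalization, the pixel summary, the filter, the moderation, the dye term, the probe per gene, the authors' tables and leaving out each heifer.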

Additional observations from a re-analysis of the deposited data

Results flagged for a closer look

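The normalized level of BOLA-NC1 at 8 months was 8.33 (log2 intensity) in heifer 2, while the other 3 heifers lay between 7.70 and 7.74 at that age. The gap to the nearest of them exceeded Dixon's 95% critical value of 0.829 for 4 samples, as a share of the range. It was the only one of 21 such checks over member levels and ratios to do so, and chance alone passes about 5% of them.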

How the results depend on the processing

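All 7 member probes had a mean log2 ratio above 0, as did 50.4% of all tested probes. The members were chosen on this contrast, so nothing is read from that count. All but the background probe EMBV3_41443 (−0.01 to 0.13) stayed above 0 under the 11 alternatives run for each. Not all of these could change a mean: dropping the dye term leaves it as it was in this balanced design. Both deposited tables gave the same means. B2M ranged from 0.33 (median centring) to 0.77, BoLA-DRB3 from 0.53 to 0.89, JSP.1 from 0.07 to 0.23, BOLA-DMB from 0.07 to 0.27, BOLA-N from 0.01 to 0.24 and BOLA-NC1 from 0.02 to 0.12. The calls were less stable. The counts called over probes, over genes and for dye orientation were 332, 378 and 18. They were 0, 365 and 0 with plain background subtraction, 0, 299 and 0 without background correction, and 0, 0 and 0 with mean pixel intensities or with ordinary standard errors. Without a dye term 0 probes and 0 genes were called for age. At an unadjusted p under 0.05 by limma, probes for age numbered 4576, 4506, 4582, 2785 and 3153 under these 5 settings in the order named, genes 2257, 1263 and 1544 under the last 3, and probes for dye orientation 3197, 3182, 3537 and 2044 under the first 4. Median centring called 3416, 2078 and 295, and moved the median of all tested probes to −0.14. Its 2078 genes split into 39 higher and 2039 lower, against 143 and 235 with loess. The authors' deposited table and the series table each called 450, 494 and 40. Without a filter the counts were 1013, 448 and 352, and with probes above background in all 8 samples 225, 351 and 50. The mean of a gene's probes called 205 genes. Leaving out 1 heifer gave 0 to 1180 probes, 0 to 335 genes and 0 to 491 probes for dye orientation. Without heifer 1 or without heifer 2 the counts for age were 0 (2605 and 3396 probes at an unadjusted p under 0.05), without heifer 3 they were 358 probes and 2 genes, and without heifer 4 1180 probes and 335 genes. B2M and BoLA-DRB3 were both called as genes with plain subtraction, without background correction, with either deposited table, with either other filter and without heifer 4. BoLA-DRB3 but not B2M was called with median centring, and neither with mean pixels, ordinary standard errors, no dye term, or without heifer 1, 2 or 3. These member calls are a description only, since the members were chosen on this contrast and every setting uses the same arrays. Among genes named from the lists, CTSB, LGMN and SYVN1 turned to −0.11, −0.13 and −0.12 with median centring, near the median of all tested probes of −0.14. PSME1, PSME2, FCGRT and SEC61A1 kept their sign at 0.14, 0.06, 0.05 and 0.15. STAT2 and NFKB1 kept their sign but missed the threshold with mean pixels (−0.37 and −0.21, limma adjusted p = 0.0954 and 0.122), ordinary standard errors (0.292 for both) and no dye term (0.113 and 0.119). The causes of these changes were not tested. The fit is itself paired, since both ages of a heifer share an array and each ratio is within the animal. Signal over background limits JSP.1, BOLA-DMB and BOLA-N, which were below background in the 14-month sample of heifer 4. It also limits BOLA-NC1, which was above background by narrow margins.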
